A study of Mus musculus with 6 samples.

Results

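The genes described here make sterols and fatty acids, or control that synthesis, and they were read in RNA from hematopoietic stem cells (HSC), the bone marrow cells that renew the blood. The group holds 29 genes of the 24062 listed in the deposited table, chosen by symbol from what is known of their function. The rule itself uses no measured value, but the choice was made with earlier results of these data known. All 29 were found and tested: 7 act in the mevalonate steps, 11 in the sterol steps, 5 in the SREBP control system and 6 in fatty acid synthesis. HSC came from control mice (Nr4a1 fl/fl; Nr4a3-/-) and from CDKO mice, which carried in addition a construct labelled Rosa26-ERt2. All mice of both groups therefore lacked Nr4a3 and carried floxed Nr4a1, a pair of genes for related nuclear receptors, and all received tamoxifen at 120 mg per kg in 4 daily injections before HSC were sorted on day 5. By background, a construct of that name holds a tamoxifen-activated Cre recombinase at a locus active in most cell types, so deletion of Nr4a1 need not be limited to HSC. Effects of the construct itself and of losing Nr4a1 cannot be told apart here. Each of the 3 libraries per group was made from a pool of 3 to 5 mice. The labels used here give neither the age, sex and strain of the mice nor the sort markers.

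Animal cells build cholesterol from acetyl-CoA through mevalonate, squalene and lanosterol, and branches of the same route supply lipid anchors for proteins. SREBP transcription factors, encoded by Srebf1 and Srebf2, switch on most enzymes of the route when sterol in the endoplasmic reticulum is low. SCAP carries them to the Golgi for activation, and INSIG proteins hold them back when sterol is plentiful. Fatty acid synthesis starts from citrate and shares this control.

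Libraries held 32863805 to 42772261 counted reads, and 3 reads, the most that a count of 0 allows, stood for 0.0701 to 0.0913 CPM, reads scaled to the library total, counting error only. Nr4a1 was at 15.2, 13.4 and 12.9 in control and 8.52, 9.76 and 9.12 in CDKO libraries (CPM; limma adjusted p = 0.00204), and Nr4a3 had 0 reads in all 6. The mean of Nr4a1 in CDKO libraries was thus 0.661 times that in control libraries, and a count over the whole gene does not read the floxed part alone, so how far Nr4a1 was deleted is not shown by these counts. HSC markers were present in both groups, with a summed level of 4709 to 4963 in control and 4259.5 to 4464 in CDKO libraries (CPM) over 10 genes. Many markers of other cells differed between the groups, counted at limma adjusted p under 0.05. Of all 13732 tested genes 66.2% passed that threshold (31.1% higher and 35.2% lower). Of 10 neutrophil markers 9 were lower in CDKO libraries, with a sum of 927 to 1205 against 55.5 to 199.9 CPM, the last in CDKO replicate 3. Of 7 tested erythroid markers 6 were lower (483 to 546 against 51.5 to 88.5 CPM, with Hba-a1 and Hbb-bt at 0 in all libraries), and so were 5 of 6 basophil and mast cell markers (689 to 729 against 455 to 479 CPM). Of 6 megakaryocyte markers 5 were higher (392 to 416 against 538 to 552 CPM). Of 5 tested macrophage and monocyte markers 3 were higher and 1 was lower (14.4 to 19.3 against 32.8 to 36.2 CPM), and of 3 tested lymphocyte markers 1 was lower (6.90 to 9.03 against 1.73 to 2.75 CPM, with Cd3e and Cd3g at 0 in all libraries). The part of these cells in the results below was not tested.

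The synthesis genes did not move as a block. With adjusted p under 0.05 in limma's test over all genes as the threshold, 9 of the 29 genes were higher in CDKO HSC, 8 were lower and 12 did not pass. That is 58.6% called, where 66.2% of the 13732 genes tested were called (31.1% higher and 35.2% lower), so a call was no more common here than among genes in general. The median difference of the 29 genes was 0.08 on the log2(CPM + 1) scale, CDKO minus control, beside -0.02 for all tested genes. After correction for GC content and length these medians were 0.11 and 0.05, and 4883 of all genes were called higher and 3958 lower, in place of 4264 and 4832. The 3 CDKO values lay wholly above the 3 control values for 11 genes and wholly below for 8, 19 of 29 in all. Over all tested genes 33.4% were separated upwards and 37.2% downwards, 70.7% together. Differences of at least 1.5-fold on that scale were found for 6 genes: Mvk and Hsd17b7 were higher, and Hmgcs1, Lss, Scd1 and Scd2 were lower. Among all tested genes 29.1% passed with at least that difference. Sqle rose 1.505-fold as a ratio of mean CPM but fell just short on the log2(CPM + 1) scale (0.582). Since these are bulk samples, fewer cells of a type and less RNA per cell cannot be told apart.

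**Figure D1:**
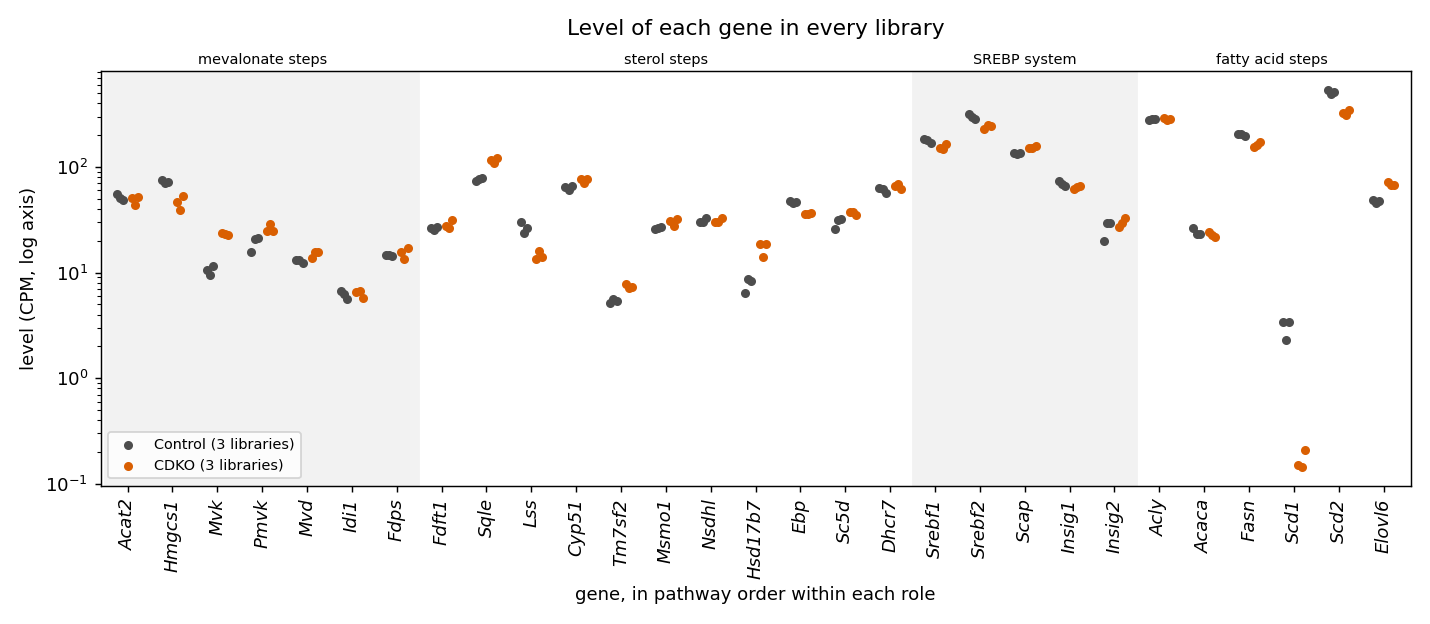
Level of each of the 29 genes in every library, in CPM on a log axis, with genes in pathway order within their role, grey points for the 3 control and orange points for the 3 CDKO libraries. Scd1 drops from 2.28 to 3.42 CPM in control to 0.145 to 0.210 CPM in CDKO libraries, and Mvk and Hsd17b7 are among the 11 genes that stand higher in all 3 CDKO libraries.

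In the mevalonate steps, which turn acetyl-CoA into farnesyl pyrophosphate, genes of neighbouring enzymes differed in opposite directions. Of the 7 genes 2 were higher (Mvk and Pmvk), 1 was lower (Hmgcs1) and 4 did not pass. That is 42.9% called, beside 66.2% of all tested genes. Hmgcs1 (mm10 chromosome 13, 119690379 to 119708260) encodes the cytosolic synthase that makes HMG-CoA. It was at 74.8, 70.01 and 71.6 in control and 46.3, 38.8 and 53.5 in CDKO libraries (CPM). Every CDKO value lay below every control value, and the CDKO libraries were more spread than the control libraries, 15.99% against 3.41% (coefficient of variation). Hmgcs1 fell 1.56-fold, from 72.1 ± 2.46 to 46.2 ± 7.39 CPM (SD, n = 3; log2 difference -0.64, SE 0.10, limma adjusted p = 0.000142). Mvk (chromosome 5, 114444269 to 114460591) encodes mevalonate kinase, which adds the first phosphate to mevalonate. Its values were 10.6, 9.52 and 11.5 in control and 23.8, 22.98 and 22.6 in CDKO libraries (CPM). The lowest CDKO library thus stood well above the highest control library. Mvk rose 2.19-fold (log2 difference 1.07, SE 0.11, limma adjusted p = 8.70e-06). Pmvk, the kinase of the next step (chromosome 3, 89454541 to 89469013), read 15.8, 20.7 and 21.04 in control and 24.9, 29.1 and 24.9 in CDKO libraries (CPM). Control replicate 1 was the low point, and the groups did not overlap. Pmvk rose 1.37-fold (log2 difference 0.44, SE 0.12, limma adjusted p = 0.00755).

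The other mevalonate genes were near the same level in both groups. Acat2, which joins acetyl-CoA units at the start of the route, was at 51.5 ± 3.14 in control and 48.95 ± 4.44 in CDKO libraries (CPM), with a log2 difference between -0.25 and 0.10 (95% interval). Its reads are uncertain, because 45.9% of the 50-base stretches of its transcript also occur in Acat3, which was itself at most 0.548 CPM in any library. Mvd, which makes isopentenyl pyrophosphate, had 13.2, 13.2 and 12.3 in control and 13.9, 15.7 and 15.5 in CDKO libraries (CPM). Those values did not overlap, yet the difference did not pass (log2 difference 0.20, limma adjusted p = 0.128). Mvd did pass under DESeq2 (adjusted p = 0.0460), after quantile normalization (limma adjusted p = 0.0278) and once GC content and length were corrected for (limma adjusted p = 0.0395), with a range of 0.0278 to 0.261 over its alternatives. Idi1, the isomerase of that product, was at 6.20 ± 0.487 and 6.35 ± 0.486 CPM (95% interval of the log2 difference -0.27 to 0.33), and 21.3% of its 50-base stretches occur in the gene model Gm13502. Fdps, the synthase of farnesyl pyrophosphate, was at 14.5 ± 0.199 and 15.4 ± 1.88 CPM (-0.18 to 0.34). It shares 26.7% of its exon bases with Gm43738, a gene model on the same strand.

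Among the 11 genes of the sterol steps, from squalene to cholesterol, 5 were higher, 2 were lower and 4 did not pass. That is 63.6% called, near the 66.2% of all tested genes, with a median log2 difference of 0.18. Sqle (chromosome 15, 59315077 to 59331192) encodes squalene epoxidase, a slow step of the later route. It was at 73.5, 76.3 and 79.2 in control and 115, 108 and 121 in CDKO libraries (CPM). With no overlap, Sqle rose from a mean of 76.3 ± 2.86 to 115 ± 6.595 CPM (log2 difference 0.58, SE 0.06, limma adjusted p = 6.64e-06). Lss (chromosome 10, 76531588 to 76557138) encodes lanosterol synthase, which folds the product of Sqle into the first sterol. Its levels were 30.1, 23.8 and 26.4 in control and 13.5, 15.9 and 13.9 in CDKO libraries (CPM). Lss fell 1.85-fold, in the direction opposite to Sqle (log2 difference -0.84, SE 0.12, limma adjusted p = 6.63e-05), and its highest CDKO library was below its lowest control library.

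Of the 8 genes after lanosterol 4 were higher (Cyp51, Tm7sf2, Hsd17b7 and Sc5d) and 1 was lower (Ebp). Cyp51, which removes the first methyl group of lanosterol, rose 1.17-fold, from 64.7, 60.8 and 65.9 CPM to 76.98, 71.2 and 76.6 CPM (limma adjusted p = 0.00562). It shares 3.76% of its exon bases with Akap9 on the other strand, a gene that was lower in CDKO libraries (log2 difference -0.39). Tm7sf2, a sterol reductase, was at 5.14, 5.57 and 5.43 in control and 7.85, 7.11 and 7.32 in CDKO libraries (CPM; 1.38-fold, limma adjusted p = 0.0172), and without CDKO replicate 1 it did not pass (limma adjusted p = 0.0507, with 0.00220 to 0.0507 over its alternatives). Tm7sf2 also shares 12.1% of its exon bases with Vps51, a far more abundant neighbour that was lower in CDKO libraries (91 to 106 CPM against 125 to 138 CPM). The Tm7sf2 log2 difference was 0.40, and 0.26 when the pseudocount was 5. The C-4 methyl groups of sterols are removed in turn by the products of Msmo1, Nsdhl and Hsd17b7, and these genes did not move alike. Hsd17b7 (chromosome 1, 169949535 to 169969241), the last of the series, was at 6.37, 8.61 and 8.34 in control and 18.7, 14.03 and 18.5 in CDKO libraries (CPM). All CDKO libraries were above all control libraries, and Hsd17b7 rose 2.20-fold (log2 difference 1.04, SE 0.15, limma adjusted p = 0.000108). Nsdhl was level at 31.1 ± 1.75 and 30.9 ± 1.42 CPM, with a 95% interval of -0.19 to 0.17 for the log2 difference. Msmo1 was at 26.003, 26.3 and 26.99 in control and 30.8, 27.8 and 32.03 in CDKO libraries (CPM), separate groups that did not pass (log2 difference 0.18, limma adjusted p = 0.0802). It passed under edgeR (adjusted p = 0.0451), DESeq2 (adjusted p = 0.0177), quantile normalization (limma adjusted p = 0.0215) and when CDKO replicate 2 was left out (limma adjusted p = 0.0433), with 0.0177 to 0.215 over its alternatives. In the authors' deposited table Msmo1 had an adjusted p of 0.0327, and it was the 1 gene of the 29 called there (18 in all) and not by limma here.

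The last sterol steps split as well. Ebp (X chromosome, 8185329 to 8193512), the isomerase that shifts a double bond in the sterol ring, was at 47.6, 45.9 and 47.1 in control and 36.2, 35.9 and 36.9 in CDKO libraries (CPM). It had some of the tightest groups of the set, 1.89% and 1.37% (coefficient of variation), and fell 1.29-fold (log2 difference -0.36, SE 0.07, limma adjusted p = 0.000596). Sc5d, the desaturase that follows, was at 25.6, 31.2 and 32.4 in control and 37.8, 37.3 and 34.98 in CDKO libraries (CPM). It rose 1.23-fold (limma adjusted p = 0.0167), but without control replicate 1, its lowest library, it did not pass (limma adjusted p = 0.0631, with 0.00111 to 0.0631 over its alternatives). Dhcr7, which performs the final reduction to cholesterol, was at 62.97, 61.3 and 56.2 in control and 66.4, 69.6 and 61.8 in CDKO libraries (CPM) and did not pass (limma adjusted p = 0.114). After correction for GC content and length it did (log2 difference 0.19, limma adjusted p = 0.0329, with 0.0329 to 0.344 over its alternatives). Fdft1, squalene synthase at the head of these steps, was at 26.1 ± 0.890 and 28.5 ± 2.65 CPM and did not pass (95% interval of the log2 difference -0.08 to 0.32). It shares 18.3% of its exon bases with Ctsb on the opposite strand, a gene at 351 to 362 in control and 389.6 to 392 in CDKO libraries (CPM).

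**Figure D2:**
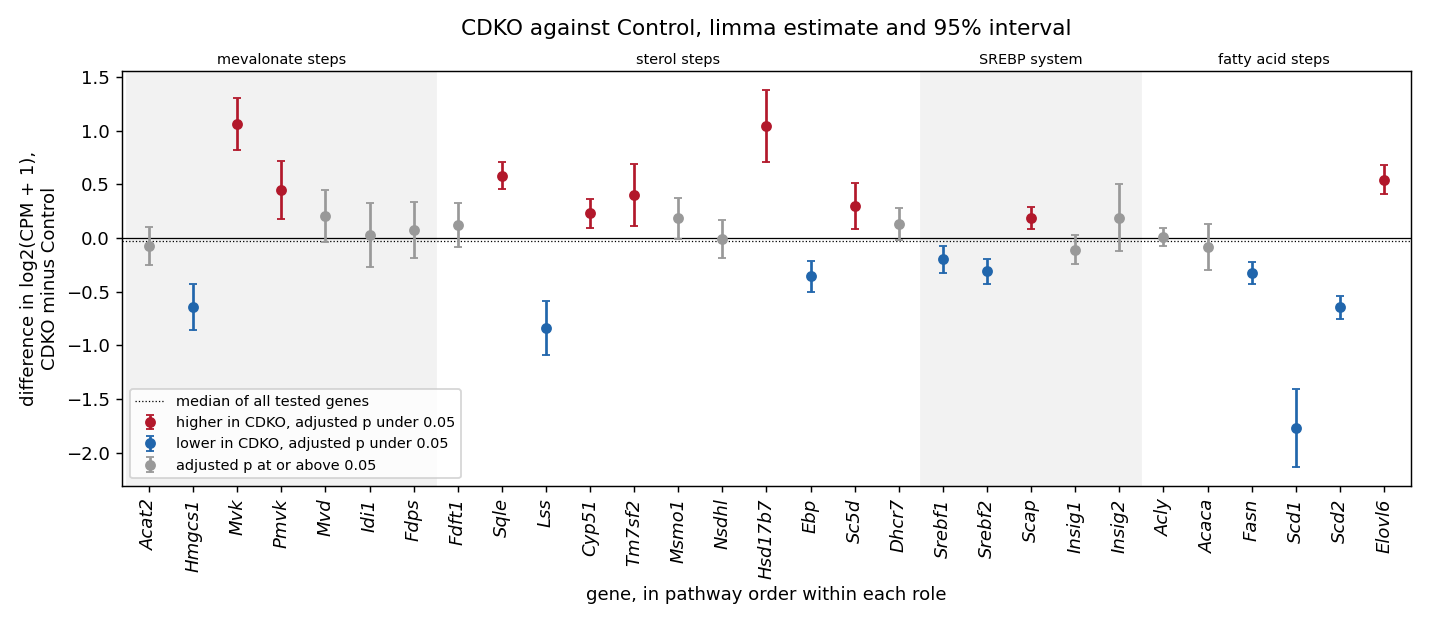
Difference between CDKO and control for each gene on the log2(CPM + 1) scale, with the limma estimate as a point and its 95% interval as a bar, in pathway order within each role, red for higher, blue for lower and grey for genes that did not pass. Neighbouring genes in the plot point in opposite directions at Hmgcs1 (-0.64) and Mvk (1.07), and at Sqle (0.58) and Lss (-0.84).

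Summed over the 11 sterol-step genes, the level was 395 to 408 in control and 443 to 467 in CDKO libraries (CPM). Sqle supplied most of this rise, with control and CDKO means of 76.3 and 115 CPM beside 400 and 457 CPM for the sum. The summed level of the 7 mevalonate genes was 185 to 191 and 171 to 192 CPM, overlapping ranges. Sums of CPM weigh long transcripts more, and no test was run on them.

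To show how alike or different the start regions of these genes are, the 250 bases before the annotated start (RefSeq, GRCm38.p6) are printed for the pair of sterol-route genes that rose most, Mvk and Hsd17b7, and the pair that fell most, Hmgcs1 and Lss. Capitals mark CCAAT, the box bound by NF-Y, a common partner of SREBP, and TCACNCCAC, a loose form of the sterol regulatory element. Sequences run 5′ to 3′ on the strand of the gene, so that ATTGG is CCAAT on the other strand.
Mvk, chr5:114444019-114444268, plus strand: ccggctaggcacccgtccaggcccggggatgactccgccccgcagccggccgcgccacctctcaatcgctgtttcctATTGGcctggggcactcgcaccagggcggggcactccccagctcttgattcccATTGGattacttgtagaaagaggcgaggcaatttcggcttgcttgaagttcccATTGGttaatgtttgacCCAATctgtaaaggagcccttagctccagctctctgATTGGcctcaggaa
Hsd17b7, chr1:169969206-169969455, minus strand: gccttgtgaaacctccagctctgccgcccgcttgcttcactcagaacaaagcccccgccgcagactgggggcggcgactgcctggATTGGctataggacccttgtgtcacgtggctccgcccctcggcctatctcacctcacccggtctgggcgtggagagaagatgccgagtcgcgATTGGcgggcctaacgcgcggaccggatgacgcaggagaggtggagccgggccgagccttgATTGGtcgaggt
Hmgcs1, chr13:119690101-119690350, plus strand: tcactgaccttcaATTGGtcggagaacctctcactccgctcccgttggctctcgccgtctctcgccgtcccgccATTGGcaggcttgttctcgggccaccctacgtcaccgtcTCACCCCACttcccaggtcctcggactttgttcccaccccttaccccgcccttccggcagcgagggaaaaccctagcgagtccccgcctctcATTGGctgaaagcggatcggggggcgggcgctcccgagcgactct
Lss, chr10:76531355-76531604, plus strand: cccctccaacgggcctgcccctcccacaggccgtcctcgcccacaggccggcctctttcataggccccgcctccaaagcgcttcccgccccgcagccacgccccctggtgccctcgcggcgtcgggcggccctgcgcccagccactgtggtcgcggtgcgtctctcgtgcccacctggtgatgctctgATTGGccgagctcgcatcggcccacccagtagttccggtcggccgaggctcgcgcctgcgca

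CCAAT boxes were thus seen before the start of genes that rose and of genes that fell. Windows of 300 bases (250 before to 50 after the start) were searched on both strands for 24 of the 29 genes, which had 32 windows because some have several starts. CCAAT was in 21 of the 32 windows (65.6%), beside 37.4% of all 32851 windows. TCACNCCAC was in 1 window, that of Hmgcs1, beside 1.24% of all windows. A stricter form of the sterol regulatory element, whose end is itself a match to TCACNCCAC, was in 0 of the 32 windows and 0.0913% of all. AAAGGTCA, the site that NR4A receptors bind as single molecules, was in 0 of the 32 windows and 1.51% of all. A missing match says only that these letters are not in this window. Sqle, Fdft1, Fdps, Scd1 and Scd2 had no window in the table.

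In the SREBP control system, both transcription factor genes were lower and the gene of their escort was higher. Of its 5 genes Srebf1 and Srebf2 fell, Scap rose, and Insig1 and Insig2 did not pass. Srebf2 (chromosome 15, 82147181 to 82205379), the main activator of the sterol enzymes, was at 319, 295 and 285 in control and 228, 252 and 245 in CDKO libraries (CPM). Srebf2 fell 1.24-fold, with separate groups (log2 difference -0.31, SE 0.05, limma adjusted p = 0.000353). After correction for GC content and length the Srebf2 log2 difference was -0.14 (limma adjusted p = 0.0391, the highest over its alternatives, which began at 1.66e-07). Srebf1 (chromosome 11, 60199089 to 60222581), which acts more on fatty acid genes, was at 185, 182 and 167 in control and 150.4, 149 and 165 in CDKO libraries (CPM). The groups came close, since control replicate 3 and CDKO replicate 3 were nearly equal, and Srebf1 fell 1.15-fold (log2 difference -0.20, limma adjusted p = 0.00841). After correction for GC content and length Srebf1 did not pass (log2 difference -0.05, limma adjusted p = 0.488, with 0.00210 to 0.488 over its alternatives). Counts per gene do not separate the forms of Srebf1 that start at different promoters. Scap (chromosome 9, 110333288 to 110384950) read 136, 133 and 135 in control and 151, 149.8 and 159 in CDKO libraries (CPM), and rose 1.14-fold (log2 difference 0.19, SE 0.05, limma adjusted p = 0.00324). The same correction raised the Scap log2 difference to 0.34 (limma adjusted p = 5.95e-05, with 2.80e-06 to 0.0144 over its alternatives). A gene model on the opposite strand shares 13.2% of its exon bases.

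The pair of INSIG genes, whose products hold SCAP in the endoplasmic reticulum, did not pass. Insig1, itself a known SREBP target, was at 73.3, 69.7 and 65.6 in control and 62.5, 64.2 and 66.4 in CDKO libraries (CPM; 95% interval of the log2 difference -0.24 to 0.03). Insig2 was at 20.1, 29.5 and 29.8 in control and 26.96, 29.8 and 33.1 in CDKO libraries (CPM). Control replicate 1 stood apart for Insig2, and without it the limma adjusted p was 0.942, the highest of a range from 0.113.

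In fatty acid synthesis both desaturase genes and the synthase gene fell. Of 6 genes 3 were lower (Fasn, Scd1 and Scd2), 1 was higher (Elovl6) and 2 did not pass. That is 66.7% called, near the 66.2% of all tested genes. The summed level was 1053 to 1097 in control and 846 to 892 in CDKO libraries (CPM). Scd2 (chromosome 19, 44293674 to 44306864), a stearoyl-CoA desaturase that puts a double bond into saturated fatty acids, was at 535, 493 and 508 in control and 321, 313 and 347 in CDKO libraries (CPM). Scd2 fell 1.57-fold, to levels well below any control library (log2 difference -0.65, SE 0.05, limma adjusted p = 1.10e-06). Scd2 supplied most of the fall of the whole set: the 29 genes summed to 2342 to 2420 in control and 2105 to 2220 in CDKO libraries (CPM), and without Scd2 to 1836 to 1885 and 1792 to 1874 CPM. Scd1 (chromosome 19, 44394455 to 44407879), the related desaturase that dominates in liver and fat, had few reads in these cells. It was at 3.37, 2.28 and 3.42 CPM in control (132, 83 and 145 reads) and 0.152, 0.145 and 0.210 CPM in CDKO libraries (5, 6 and 9 reads). Scd1 fell 17.9-fold as a ratio of mean CPM, and fell by 1.77 on the log2(CPM + 1) scale, which understates changes of low genes (SE 0.16, limma adjusted p = 4.18e-06). The Scd1 log2 difference was -4.12 in edgeR on the recovered reads and -0.63 with a pseudocount of 5. Scd1 and Scd2 are neighbours on the chromosome, and 2.68% of the 50-base stretches of the Scd2 transcript occur in Scd1. Scd3, the next copy, shares 3.49% of those of Scd1 and was at 0.435 to 0.905 in control and 0.0468 to 0.213 in CDKO libraries (CPM). The fall of Scd1 went with that of the neutrophil and erythroid markers given above, whose part in it was not tested.

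Fasn (chromosome 11, 120805846 to 120824547), the enzyme that assembles palmitate, was at 207, 205 and 198 in control and 154, 161 and 171 in CDKO libraries (CPM). The groups were apart, and Fasn fell 1.25-fold (log2 difference -0.33, SE 0.05, limma adjusted p = 0.000123). After correction for GC content and length Fasn narrowly missed the threshold (log2 difference -0.12, limma adjusted p = 0.0532, the highest over its alternatives, which began at 8.58e-11). Elovl6 (chromosome 3, 129532355 to 129638495), which lengthens palmitate to stearate, was at 48.4, 45.4 and 47.4 in control and 71.5, 67.1 and 68.2 in CDKO libraries (CPM). It was the 1 gene of the 6 that rose, 1.47-fold with tight groups (log2 difference 0.54, SE 0.06, limma adjusted p = 1.63e-05). Acly, which releases acetyl-CoA from citrate, was at 276, 284 and 287 in control and 288, 281 and 284 in CDKO libraries (CPM). Its 95% interval for the log2 difference, -0.07 to 0.10, was the narrowest of the 29, and after correction for GC content and length it passed as higher (log2 difference 0.11, limma adjusted p = 0.0441, with 0.0441 to 0.980 over its alternatives). Acaca, which makes malonyl-CoA and commits carbon to fatty acids, was at 24.4 ± 1.98 and 22.9 ± 1.37 CPM (interval -0.30 to 0.13). Acaca is uncertain because 52.6% of its 50-base stretches occur in the gene model Gm5182.

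**Figure D3:**
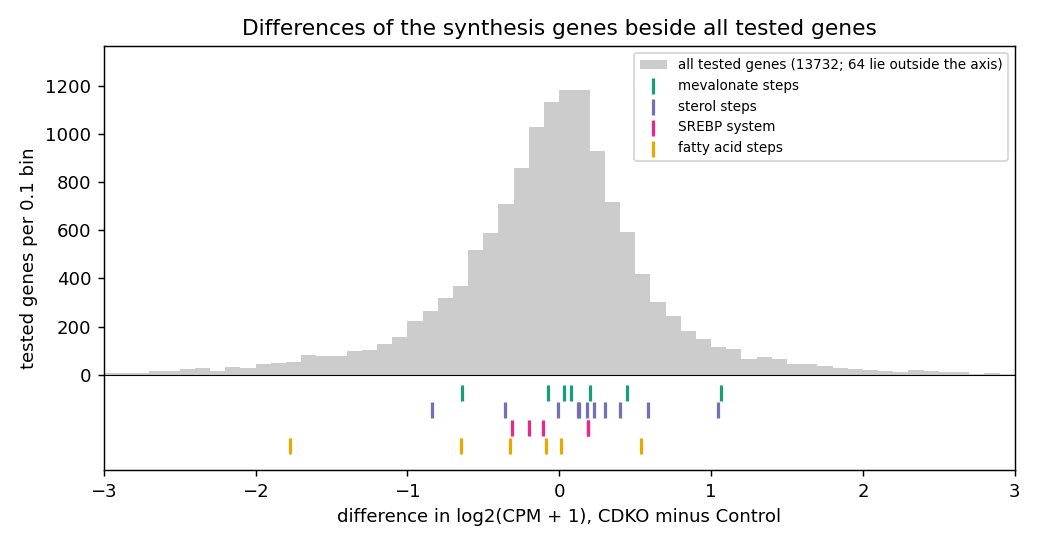
Number of tested genes in each 0.1 step of the difference in log2(CPM + 1), CDKO minus control (grey, 13732 genes, of which 64 lie outside the axis), with a coloured tick under the axis for each of the 29 genes by role. The ticks lie on both sides of 0 and within the spread of all genes, with Scd1 at -1.77 the farthest.

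Levels can be set side by side between genes only after scaling by length, here CPM per kilobase of the principal transcript. On that scale Scd2 was the highest of the 29 genes in control HSC, at 93.9 CPM per kb, followed by Acly at 64.3, Srebf2 at 59.1, Srebf1 at 41.4 and Scap at 31.8. In CDKO HSC Acly was highest at 64.8 CPM per kb, ahead of Scd2 at 59.96 and Srebf2 at 47.6, and Sqle came next at 41.6. The lowest in control HSC were Scd1 at 0.626, Hsd17b7 at 1.68 and Idi1 at 2.05 CPM per kb. In CDKO HSC the lowest were Scd1 at 0.0350, Idi1 at 2.10 and Acaca at 2.41 CPM per kb, and Hsd17b7 was at 3.70. Scd2 exceeded Scd1 on this scale in both groups. These are group means, and differences between genes were not tested.

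**Figure D4:**
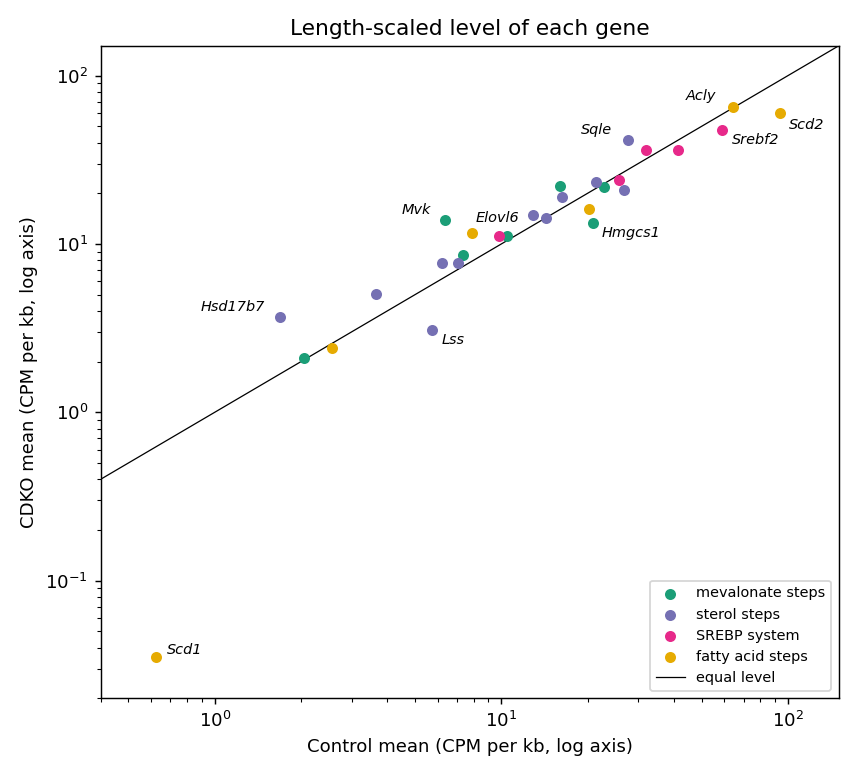
Mean level of each gene in control (x axis) and CDKO libraries (y axis), in CPM per kb on log axes, coloured by role, with the line of equal level. Sqle, Mvk, Hsd17b7 and Elovl6 lie above the line, Scd1, Scd2, Lss, Hmgcs1 and Srebf2 lie below it, and Acly lies on it at 64.3 and 64.8 CPM per kb.

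Within groups the 29 genes varied little. Their coefficient of variation had a median of 5.43% over the control and 5.81% over the CDKO libraries, with Scd1 the most variable gene in both (21.5% and 21.3%). Among the control libraries, replicate 1 was the highest for 16 genes and the lowest for 9. Among the CDKO libraries, replicate 2 was the lowest for 17 genes and replicate 3 the highest for 15. Replicate 3 of the CDKO group was also the library with the highest summed neutrophil and erythroid markers of that group.

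Genes of neighbouring steps were counted in 6 lists. Of the 59 tested genes in them 21 were higher, 19 were lower and 19 did not pass. That is 67.8% called beside 66.2% of all genes, a share near that of genes in general. By list the share called ran from 40.0% to 100%, in lists of 6 to 16 tested genes. Of 11 genes for sterol side-chain reduction and the isoprenoid branches 5 were higher and 1 was lower. The one that fell was Dhdds, which with Nus1 forms the enzyme for dolichol, the lipid carrier of protein glycosylation. Dhdds went down from 70.6 ± 3.75 to 38.9 ± 2.16 CPM (limma adjusted p = 1.89e-06) and Nus1 rose from 54.4 ± 2.42 to 69.04 ± 2.86 CPM (limma adjusted p = 0.000573). The transcripts for the subunits of this enzyme thus moved in opposite directions, and protein was not measured. Fntb, the farnesyltransferase subunit that attaches lipid to proteins, rose from 14.3 ± 1.03 to 21.9 ± 0.975 CPM (limma adjusted p = 0.000458).

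Genes that process or destroy the SREBP machinery were called in both directions, with 2 higher and 3 lower of 8 (62.5% called, near the 66.2% of all genes). Erlin2 and Erlin1, genes for related proteins of the endoplasmic reticulum that restrain SREBP activation, parted. Erlin2 rose from 98.7 ± 7.32 to 137 ± 9.04 CPM (limma adjusted p = 7.98e-05) and Erlin1 fell from 79.97 ± 3.27 to 63.1 ± 1.91 CPM (limma adjusted p = 0.000320). Fbxw7, which marks active SREBP and many other proteins for degradation, fell from 43.9 ± 0.273 to 30.99 ± 2.90 CPM (limma adjusted p = 0.000290).

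Genes for sterol handling beyond synthesis moved in both directions. Of 10 genes for uptake, transport and storage 3 were higher and 1 was lower (40.0% called, beside 66.2% of all tested genes). The gene that fell was Soat1, which esterifies cholesterol for storage, from 48.98 ± 4.29 to 27.3 ± 1.67 CPM (limma adjusted p = 9.89e-06). Osbp, a sterol exchanger at Golgi contacts, rose from 166 ± 6.75 to 201 ± 3.80 CPM (limma adjusted p = 0.000276), and Scarb1, a receptor for high-density lipoprotein, from 108 ± 6.03 to 138 ± 10.3 CPM (limma adjusted p = 0.000470). Of 6 genes around LXR, the sterol-sensing nuclear receptor that opposes SREBP2, 2 were higher and 3 were lower (83.3% called, beside the same 66.2%). Abca1, the exporter of cholesterol to lipid-poor apolipoprotein, was at 93.04, 93.3 and 97.6 in control and 40.1, 51.5 and 36.1 in CDKO libraries (CPM). Abca1 fell 2.23-fold (log2 difference -1.15, SE 0.10, limma adjusted p = 3.63e-06). Abcg1, a second exporter, fell from 189 ± 15.2 to 146 ± 1.65 CPM (limma adjusted p = 0.000180). The Abcg1 log2 difference of -0.37 became -0.19 after correction for GC content and length. Apoe, the apolipoprotein that accepts exported sterol and is made in quantity by macrophages, rose from 194 ± 26.8 to 249.5 ± 7.53 CPM (limma adjusted p = 0.00141), in the libraries where the macrophage and monocyte markers were higher, whose part was not tested.

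Of 16 genes that feed, elongate, desaturate or activate fatty acids 6 were higher and 6 were lower. That is 75.0% called, beside 66.2% of all tested genes. Acacb, the mitochondrial form of the Acaca enzyme whose product blocks fatty acid entry into mitochondria, fell in CDKO HSC. It was at 33.95, 37.3 and 38.6 in control and 10.04, 10.1 and 8.39 in CDKO libraries (CPM), a 3.85-fold difference (log2 difference -1.84, SE 0.11, limma adjusted p = 2.91e-07). Me1, malic enzyme, which supplies NADPH for lipid synthesis, rose from 4.89 ± 0.581 to 14.4 ± 2.46 CPM (limma adjusted p = 1.33e-05). Slc25a1, which exports citrate from mitochondria to the enzyme made from Acly, rose from 126 ± 3.33 to 176 ± 2.52 CPM (limma adjusted p = 3.52e-06). All 8 genes of glycerolipid synthesis passed, 3 as higher and 5 as lower, in data where 66.2% of all tested genes passed. Lpin2, a phosphatidate phosphatase, fell from 203 ± 3.95 to 112 ± 1.24 CPM (limma adjusted p = 1.14e-07). Agpat2, an acyltransferase, was at 109 ± 0.658 CPM in control and fell to 76.1 ± 5.06 CPM in CDKO HSC (limma adjusted p = 1.71e-05). Dgat1, which completes triglyceride, fell from 42.8 ± 1.79 to 26.8 ± 1.47 CPM (limma adjusted p = 2.60e-05).

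Most of the calls held across the ways of fitting the data. Of the 17 genes called, 13 kept their call and direction in every one of 16 other fits that gave them a value: Mvk, Pmvk, Sqle, Cyp51, Hsd17b7, Scap and Elovl6 as higher, and Hmgcs1, Lss, Ebp, Srebf2, Scd1 and Scd2 as lower. Fdft1, Fdps, Idi1, Acat2, Insig1, Insig2, Nsdhl and Acaca were called in none of these fits. The remaining 8 genes changed side in at least 1 fit, as given beside their values.

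**Figure D5:**
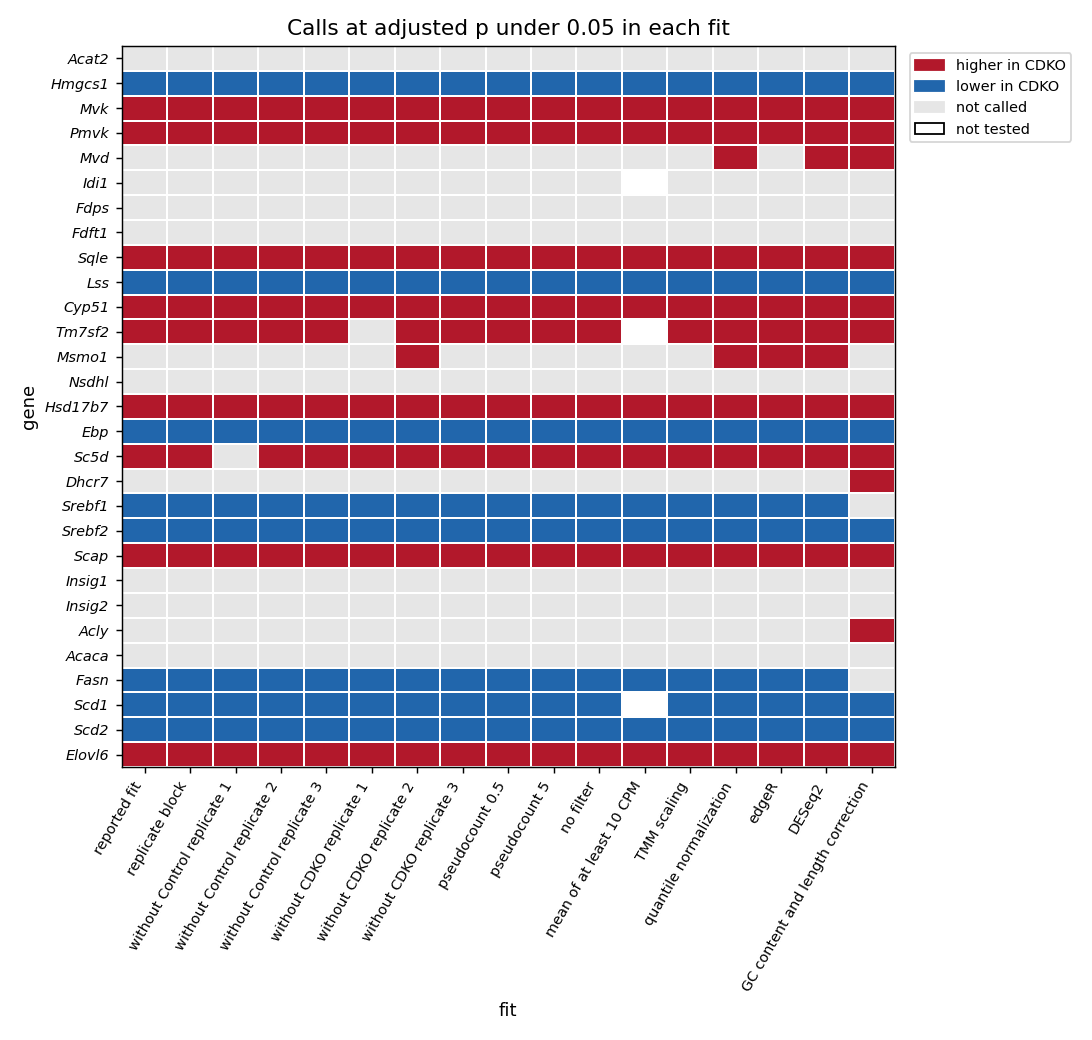
Call of each of the 29 genes (rows) at adjusted p under 0.05 in the reported fit and each of 16 alternative fits (columns), red for higher in CDKO, blue for lower, grey for not called and white for not tested. No gene is red in one fit and blue in another, and Srebf1 and Fasn lose their call only after correction for GC content and length.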

How the data were processed

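RNA of sorted HSC was amplified with a SMARTer ultra low input kit and made into Nextera XT libraries, per the labels' protocols, which state no strand. TopHat2, HTSeq and DESeq2 (no versions) and mm10 are named, per the submitters' processing notes; the annotation is not given in the sources used here. The authors deposited CPM, scaled to each library's total. Dividing by the value of 1 read gave whole reads for 100% of values above 0, to within 0.01 read. A deposited mean signal per gene (baseMean), scaled by size factors, was not used. The deposited log2 fold change and its error, on the log2 scale, set control over CDKO. The deposited stat is a score, the fold change over its error, and raw and adjusted p-values come from the authors' own test; only their adjusted p is quoted.

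The 2 groups were compared with limma 3.58.1 (R 4.3.3) on log2(CPM + 1), with a mean-variance trend, two-sided, over 13732 genes with a mean of at least 10 recovered reads. Benjamini-Hochberg adjustment covered all of them, at a threshold of 0.05. Left out were 12 genes listed under a date and 2 rows sharing a symbol. Folds are ratios of mean CPM and errors are SD over 3 pools or limma's SE. No sample labels say which libraries were prepared together, so a preparation difference cannot be told apart from genotype. Alternatives were DESeq2 1.42.0 and edgeR 4.0.16 run on the reads recovered, other scalings, filters and pseudocounts, a block on replicate number, each library left out, and a loess correction for length and GC content, known for all 29 members and 95.2% of tested genes. The limma script was tested on simulated data in which only a small part of the genes was changed. With 66.2% of genes called here, that check does not cover data in which most genes differ. Coordinates, lengths, overlaps and shared 50-base stretches are from GENCODE M21 (GRCm38). Every member is named, with up to 3 genes of smallest p per neighbouring list, and Nr4a1 and Nr4a3 as a check of the genotype. Members and lists were chosen with earlier results of these data known.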

Additional observations from a re-analysis of the deposited data

How the results depend on the processing

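The number of genes called higher was 9 and the number called lower 8. The first ran from 8 to 12 and the second from 6 to 8 over all 16 other fits and an adjusted p threshold of 0.1, and from 8 to 10 and 8 to 8 leaving out 1 library at a time. Asking for at least 1.5-fold as well left 2 higher and 4 lower, and 3 higher and 7 lower in the neighbouring lists, in place of 21 and 19, by construction of that setting. In those lists leaving out 1 library gave 19 to 21 higher and 16 to 19 lower. The median member log2 difference, 0.0765 over the 29 genes, ran from 0.0485 to 0.0902 leaving out 1 library. It was 0.0485 without CDKO replicate 3, 0.0985 at a mean of at least 10 CPM (26 genes tested), 0.103 under edgeR and DESeq2, 0.169 with quantile normalization and 0.114 after the correction for GC content and length; the cause was not tested. Over all genes the median was -0.0242, 0.0188 with quantile normalization (4690 higher, 4445 lower) and 0.0545 after that correction. No result changed direction with a call. Replicate numbers are shared between the groups, but the labels do not say that they pair libraries. Deviations of libraries with the same number correlated at 0.0518, 0.0483 and -0.0120, and control replicate 3 did not correlate best with its own number. With a replicate block 9 genes were higher and 8 lower, and the median was 0.0765. Depth limits Scd1 most, with 5 to 9 reads per CDKO library. Pools of mice are separate samples by label, and p-values measure the spread between these pools.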
